A study of Mus musculus with 12 samples.

Results

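Protocadherins are cadherin-family adhesion proteins of the cell surface, and they were followed here by every gene symbol beginning with Pcdh. The 4 count tables held 36 such genes of 17986 listed in at least 1 table, and 32 of the 14360 listed in all 4. They were 1 entry of the alpha cluster, 22 beta genes, 1 entry of the gamma cluster and 12 numbered genes outside the clusters.

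RNA depleted of ribosomal RNA was sequenced from hippocampus of C57BL6/J mice in 12 libraries. They form 2 arms called L and C, which the count headers name training or learned (a T on days 1 and 20) and control. A synapse fraction gave 1 library of L and 1 of C on each of days 1, 6 and 20, and the whole homogenate gave 3 libraries of L and 3 of C on day 6. No label gives a genotype, age or agent beyond strain, arm and day, the way the synapse fraction was prepared, or what was done to the animals. The labels also leave out whether each library of a group was a different animal. The p-values therefore reflect the spread among the libraries of each fit, which could be technical. Each synapse day and the homogenates stand in tables of their own, so fraction or day and table cannot be told apart. The synapse tables list 17130 genes on day 1, 17130 on day 20 and 14552 on day 6, and the homogenate table lists 17458. Every column name of the synapse and homogenate tables of day 6 ends in the word Input, which the other synapse tables lack. Synapse day 6 and this difference in naming and gene list therefore cannot be told apart.

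The alpha, beta and gamma genes stand in 3 neighbouring clusters. In the alpha and gamma clusters each gene has its own first exon and shares the last exons with its neighbours, so that a neuron picks promoters and carries its own combination of isoforms, which bind homophilically across the cell contact and take part in self-recognition of neurites. Beta genes consist of a single coding exon each. The numbered genes stand outside these clusters, and most belong to the delta group, which is known for axon outgrowth and synapse formation.

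In the annotation (GENCODE M21, GRCm38, the build called mm10) the beta genes run from Pcdhb1 at position 37264938 to Pcdhb22, which ends at 37524479, on the plus strand of chromosome 18. All 22 annotated beta genes had a row in the tables. By identifier, 1 of 14 annotated alpha genes and 1 of 22 gamma genes had a row. The alpha row carries the symbol Pcdha2 and ENSMUSG00000007440, which is Pcdha11 in this annotation, and the gamma row carries Pcdhga9 and ENSMUSG00000023036, which is Pcdhgc4. Which gene of the cluster each row counts therefore cannot be told apart, and they are called the alpha entry and the gamma entry here. The exons of Pcdhb21 and Pcdhb22 overlap on the same strand, and those of Pcdh7, Pcdh8, Pcdh10, Pcdh19 and Pcdhb12 overlap an antisense gene outside the tables, so these values are less certain because the strand setting of the counting was not given in the sources used here.

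Library totals ran from 9100192 to 15950350 counts, and a count of 0 allowed 0.188 to 0.33 CPM, where CPM is the count scaled to a library total of 1000000. Markers of neurons were detected in every library, with a summed level of 7790 to 7990 CPM in the day 6 synapse libraries, 4630 to 4900 CPM in those of days 1 and 20 and 4680 to 5070 CPM in the homogenates. Oligodendrocyte markers summed to 2830 to 3330 CPM in the synapse libraries of day 6, 9530 to 11300 CPM in those of days 1 and 20 and 1810 to 3050 CPM in the homogenates. Liver transcripts summed to 28.9 and 140 CPM in the day 6 synapse libraries of L and C and to 1830 CPM in homogenate L replicate 1, with at most 0.172 CPM in the other 9 libraries.

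The protocadherin transcripts formed a larger share of the synapse libraries than of the homogenates, above all on day 6. Summed over all protocadherin genes, the synapse libraries of L and C had 3677 and 3911 CPM on day 1, 7083 and 7238 CPM on day 6 and 3724 and 3883 CPM on day 20. In the homogenates the sum was 2551, 2545 and 2674 CPM for L and 2704, 2576 and 2762 CPM for C. The day 6 synapse libraries, those of days 1 and 20 and the homogenates did not overlap. In bulk tissue, fewer cells of a type and less RNA per cell cannot be told apart. Numbered genes made up 63.2 to 64.3% of these counts in the day 6 synapse libraries, 62.5 to 63.6% on days 1 and 20 and 65 to 67.8% in the homogenates. The gamma entry took 14.2 to 15% on day 6 and 19.3 to 20% on days 1 and 20, against 12.5 to 13.5% in the homogenates. The beta genes together took 11 to 11.3% on day 6 and 8.18 to 9.25% on days 1 and 20, against 10.2 to 12.1% in the homogenates.

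Levels were compared between genes as mean CPM per kilobase of merged exons over the 6 homogenates. Pcdh9 (53.6 per kilobase) and Pcdh20 (50.3) were the highest, and Pcdh1 followed at 33.1, Pcdh19 at 20.5 and Pcdh17 at 18.7. Pcdh10, Pcdh7 and Pcdh8 had 11.8, 10.4 and 8.76 CPM per kilobase. The beta genes lay lower, between 5.87 for Pcdhb19 and 0.74 for Pcdhb8, apart from Pcdhb1 at 0.0609. Pcdh15, which forms part of the tip link of hair cells in the inner ear, had 1.2. Pcdh12, an endothelial protocadherin, Pcdh18 and Pcdh11x were at most 0.0486 CPM per kilobase, and with Pcdhb1 they are the 4 genes that the day 6 synapse table does not list. Their highest value in any library was 1.32 CPM (Pcdh12, synapse L on day 20), and they were not tested in the main fits. Pcdh12 averaged 1.02 ± 0.336 CPM in the synapse libraries of days 1 and 20 and 0.295 ± 0.275 CPM in the homogenates (SD, n = 4 and 6). The ranges overlapped, with 0.702 to 1.32 CPM in the former and 0.0887 to 0.842 CPM in the latter. A fit without the day 6 synapse libraries called it higher (log2 difference 1.97, SE 0.55, edgeR adjusted p = 0.00676). That fit called 7927 of 14111 genes, 3839 of them higher.

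Synapse fraction and homogenate were first compared on day 6, with edgeR's quasi-likelihood test over the 8 libraries of that day and p-values adjusted over all 14137 genes by Benjamini-Hochberg. All 32 tested protocadherin genes were higher in the synapse fraction, where 67.3% of all genes tested were called, 28.7% higher and 38.5% lower. Their median log2 difference was 2.21, against -0.22 for all genes tested. The alpha entry (2.38, SE 0.07) and the gamma entry (2.36, SE 0.06) lay close to the 9 numbered genes (median 2.21) and to the 21 beta genes (median 2.20). This fit rests on 1 synapse library in each arm, which is assumed to vary like the homogenates.

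Markers of several cell types moved between the fractions on day 6 as well. In the same edgeR fit 5 of 5 astrocyte markers (median log2 difference 1.69), 4 of 5 of oligodendrocytes (1.64), 2 of 2 of oligodendrocyte precursors (2.40) and 3 of 3 of microglia (2.76) were higher. Of 6 neuron markers 2 were higher and 4 lower (median -0.70), although their summed CPM was higher, and 4 of 5 endothelial markers were lower (-1.60). The part of these markers in the protocadherin differences was not tested.

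Scaling sets the size of these folds. Trimmed-mean (TMM) factors, which rescale the library totals, were 0.642 to 0.701 for the day 6 synapse libraries and 1.12 to 1.17 for the homogenates. Scaled to the library total instead, the median of all genes moved to -0.99 and that of the beta genes to 1.43. With this scale 31 of 32 members were called, beside 11151 of 14137 genes, 2442 higher and 8709 lower. Relative to the median of all genes the beta genes stood 2.42 higher. That gap is the same with either scaling by construction, because a change of scale shifts all genes alike. In plain CPM, the 32 genes had 1.25 to 4.27 times the homogenate mean on day 6, with a median of 2.8.

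**Figure D1:**
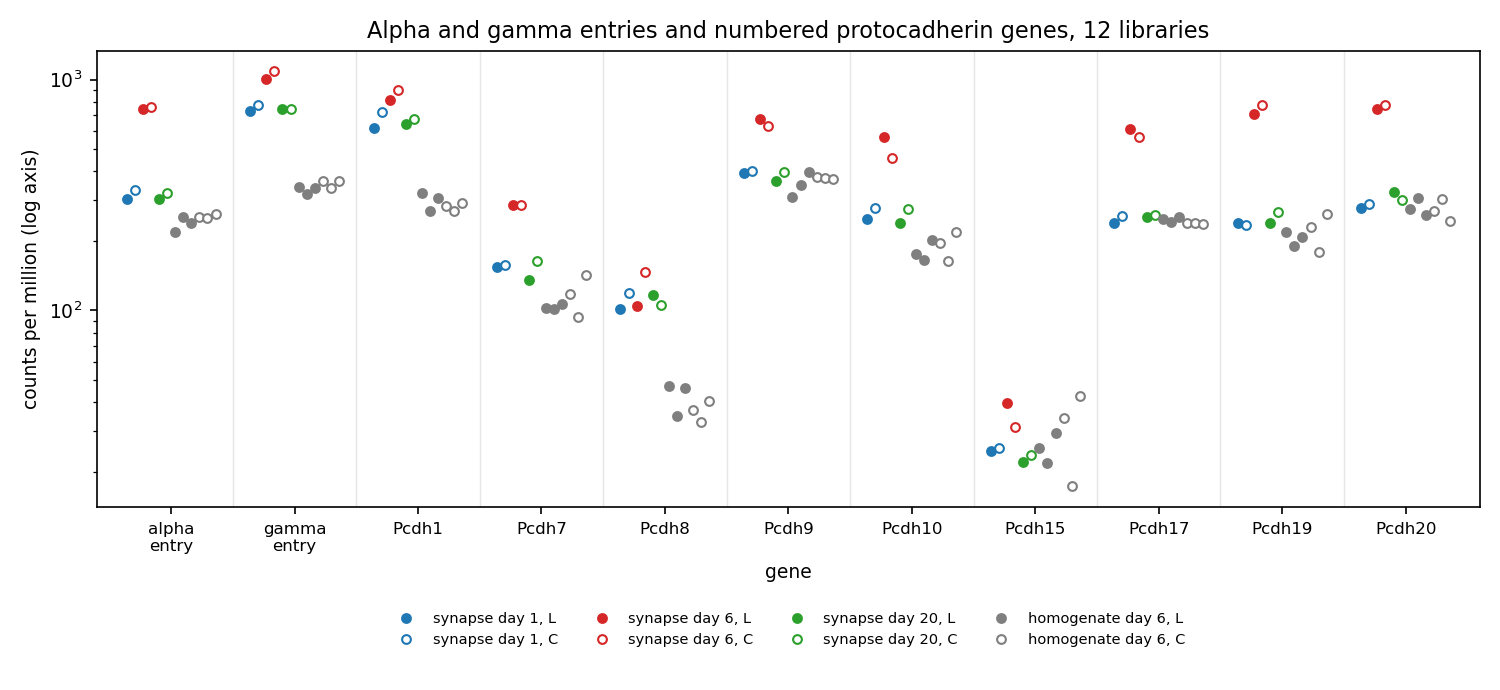
Level in CPM on a log axis for the alpha entry, the gamma entry and 9 numbered genes, 1 point a library (filled L, open C; blue, red and green for synapse days 1, 6 and 20, grey for homogenates). The day 6 synapse libraries lie above all homogenates for every gene shown except Pcdh15, whereas on days 1 and 20 Pcdh1, Pcdh8 and the gamma entry stand well above the homogenates and Pcdh17, Pcdh19 and Pcdh20 reach into their range.

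Among the numbered genes Pcdh19, an X-linked delta protocadherin whose loss causes an epilepsy in humans, had the largest difference on day 6. Its level was 712.2 and 777.1 CPM in the day 6 synapse libraries of L and C. The homogenates had 218.6, 189.9 and 208.7 CPM in L and 230.3, 178.6 and 260.9 CPM in C. Both synapse libraries lay above all 6 homogenates, and the log2 difference was 2.56 (SE 0.11, edgeR adjusted p = 4.41e-08). Pcdh8, also known as arcadlin in rat, where neuronal activity induces it, had 104.8 and 146.5 CPM in the day 6 synapse libraries of L and C. Its homogenate values were 47.3, 34.8 and 46 CPM in L and 37, 32.9 and 40.5 CPM in C. Again the fractions did not overlap (log2 difference 2.41, SE 0.11, edgeR adjusted p = 6.57e-08).

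Pcdh1 (2.33, SE 0.07), Pcdh20 (2.23, SE 0.10), Pcdh10 (2.21, SE 0.10), which takes part in activity-dependent elimination of synapses, Pcdh7 (2.14, SE 0.11) and Pcdh17 (2.03, SE 0.06), known from presynaptic vesicle assembly, all had log2 differences near the median of the group. Pcdh9 was lower among them at 1.61 (SE 0.08). Pcdh15 had the smallest difference, 1.08 (SE 0.27, edgeR adjusted p = 0.00751). Its level was 39.6 and 31.3 CPM in the day 6 synapse libraries of L and C. In the homogenates it had 25.4, 21.9 and 29.5 CPM in L and 34.2, 17.3 and 42.4 CPM in C. The fractions overlapped for this gene alone, and its call ended with library totals as the scale (0.31, edgeR adjusted p = 0.355) and without synapse library L of day 6 (0.83, edgeR adjusted p = 0.0878).

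The beta genes spanned log2 differences from 1.57 (Pcdhb22, SE 0.23) to 2.86 (Pcdhb3, SE 0.20) on day 6, and 21 of 21 were called higher. Pcdhb3 had 30.6 and 29.1 CPM in the synapse libraries of L and C. Its homogenate levels were 4.77, 6.57 and 8.57 CPM in L and 7.34, 5.85 and 8.84 CPM in C. Pcdhb19, the most abundant beta gene of the homogenates, had 97.1 and 94.8 CPM in the synapse libraries of L and C on day 6. The homogenates gave 37.3, 45.6 and 45.7 CPM in L and 41.4, 44.3 and 36.9 CPM in C. Its log2 difference of 1.96 (SE 0.11) was below the median of the beta genes. Pcdhb16 and Pcdhb17, the next most abundant by CPM, differed by 2.33 (SE 0.12) and 2.17 (SE 0.11).

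On days 1 and 20 the differences from the homogenates were smaller and divided the genes. The synapse libraries of those days were compared with the day 6 homogenates in a fit of all 12 libraries, with unit and arm as terms, so that day differs between the sides as well as fraction. Of 32 protocadherin genes 23 were higher and 1 lower, where 45.6% of 13766 genes were called, 24.2% higher and 21.4% lower. Their median log2 difference was 0.54, with -0.03 for all genes. Scaled to library totals, 14 of the 32 passed, where 7008 of 13766 genes were called, 2375 higher and 4633 lower. The median of all genes was then -0.24. In plain CPM, 12 of 32 genes had all 4 synapse libraries above all 6 homogenates and 1, Pcdhb19, had all 4 below. Such separation was not counted over all genes, in this or the other comparisons, so no share stands beside it. Markers of astrocytes (5 of 5, median log2 difference 0.94), oligodendrocytes (5 of 5, 1.41), their precursors (2 of 2, 1.2), microglia (3 of 3, 1.59) and endothelium (3 of 5, 0.52) were higher here too, with 2 higher and 3 lower of 6 for neurons (-0.15), and their part was not tested.

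Pcdh8, Pcdh1 and the gamma entry led. Pcdh8 had 101.6 and 119.5 CPM in the synapse libraries of L and C on day 1, and 116.2 and 105.6 CPM on day 20, above all homogenates listed for it. Its log2 difference was 1.69 (SE 0.13, edgeR adjusted p = 1.93e-07). Pcdh1, a numbered gene also studied in airway epithelium in humans, had 619.3 and 722.2 CPM in L and C on day 1 and 643.4 and 673.9 CPM on day 20. The homogenates ranged from 270.1 to 324.1 CPM in L and from 270.7 to 290.9 CPM in C. No synapse library reached down to them, and the log2 difference was 1.39 (SE 0.07, edgeR adjusted p = 6.71e-09). The gamma entry averaged 751.2 ± 18.2 CPM over the 4 synapse libraries and 344.9 ± 17.2 CPM over the homogenates (SD, n = 4 and 6), a log2 difference of 1.33 (SE 0.05). The alpha entry averaged 315.9 ± 14.7 CPM and 246.1 ± 15.3 CPM, a log2 difference of 0.56 (SE 0.06).

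Pcdh10 (0.69, SE 0.08) and Pcdh7 (0.67, SE 0.08) had intermediate log2 differences on days 1 and 20. Pcdh19 (0.40, SE 0.08), Pcdh20 (0.31, SE 0.09), Pcdh9 (0.30, SE 0.07) and Pcdh17 (0.26, SE 0.06) passed the test by small amounts, and none of these 4 calls held with library totals as the scale (edgeR adjusted p from 0.0918 to 0.453). The call of Pcdh20 also ended without synapse library C of day 1 (adjusted p = 0.0508 in edgeR) or L of day 20 (0.0572). Pcdh15 was at -0.04 (SE 0.19) and was not called.

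Of the 21 beta genes 13 were higher on days 1 and 20 and 1 lower. Pcdhb2 had the largest difference, with 10.8 and 10.3 CPM in L and C on day 1 and 8.3 and 12.5 CPM on day 20. The homogenates had 5.38, 5.39 and 5.93 CPM in L and 4.56, 3.99 and 5.14 CPM in C. All 4 synapse libraries exceeded them (log2 difference 1.26, SE 0.18, edgeR adjusted p = 8.81e-05). Pcdhb13 (1.06, SE 0.19), Pcdhb9 (0.91, SE 0.17) and Pcdhb12 (0.88, SE 0.17) came next. Pcdhb19 was the beta gene called lower. It had 29 and 29.9 CPM in L and C on day 1 and 26.3 and 31.4 CPM on day 20, below the lowest homogenate at 36.9 CPM. The log2 difference was -0.32 (SE 0.10, edgeR adjusted p = 0.0231). This call ended in 6 of the 10 fits that left out 1 library, those without homogenate L replicate 2 or 3, homogenate C replicate 2, either synapse library of day 1 or synapse library L of day 20 (log2 difference -0.38 to -0.26 and edgeR adjusted p from 0.0101 to 0.129 over the 10 fits).

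**Figure D2:**
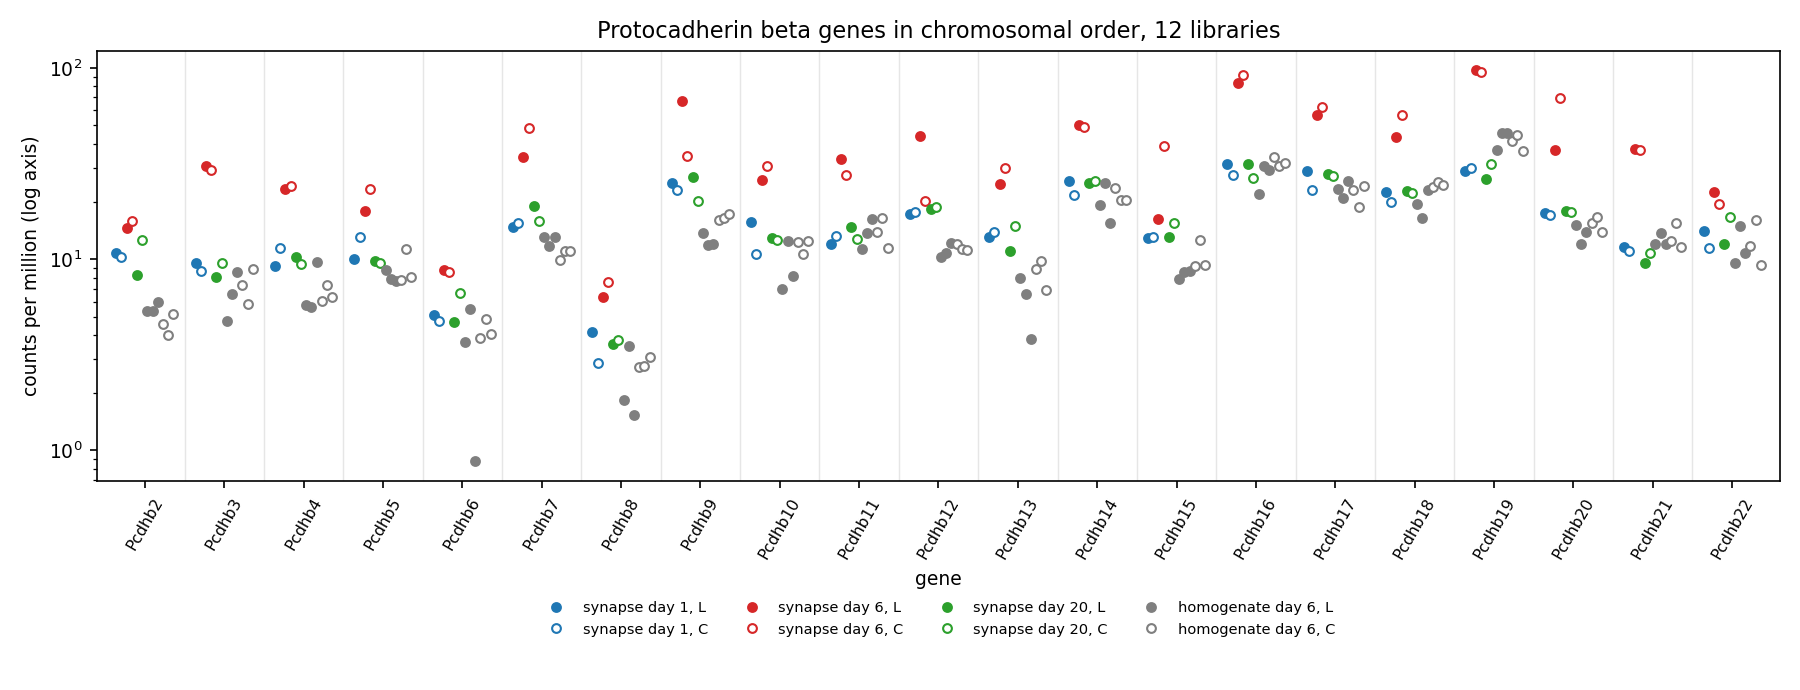
Level in CPM on a log axis of 21 beta genes in their order along chromosome 18, 1 point a library, with the symbols used for the numbered genes. Day 6 synapse libraries lie above the homogenates for each gene, and the synapse libraries of days 1 and 20 lie above the homogenates at Pcdhb2 and below them at Pcdhb19.

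Along the beta cluster, the differences of days 1 and 20 were larger toward the start. The 11 tested genes up to Pcdhb12 had a median log2 difference of 0.68 and the 10 after it 0.41. On day 6 both medians were close, 2.20 and 2.19. Across the 21 genes the day 1 and 20 difference had a Spearman correlation of -0.64 with position, -0.78 with the length of merged exons and -0.66 with the homogenate level. On day 6 these correlations were -0.33, -0.40 and -0.25. They are descriptions of 21 genes that share the same libraries and scaling factors. The homogenate level is also subtracted in the difference, so a negative correlation with it is partly built in. Position and exon length were themselves correlated at 0.52, so they cannot be told apart. Pcdhb19, with 7138 bases of merged exons, belongs to the long genes, and Pcdhb2, with 2813, to the short ones.

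**Figure D3:**
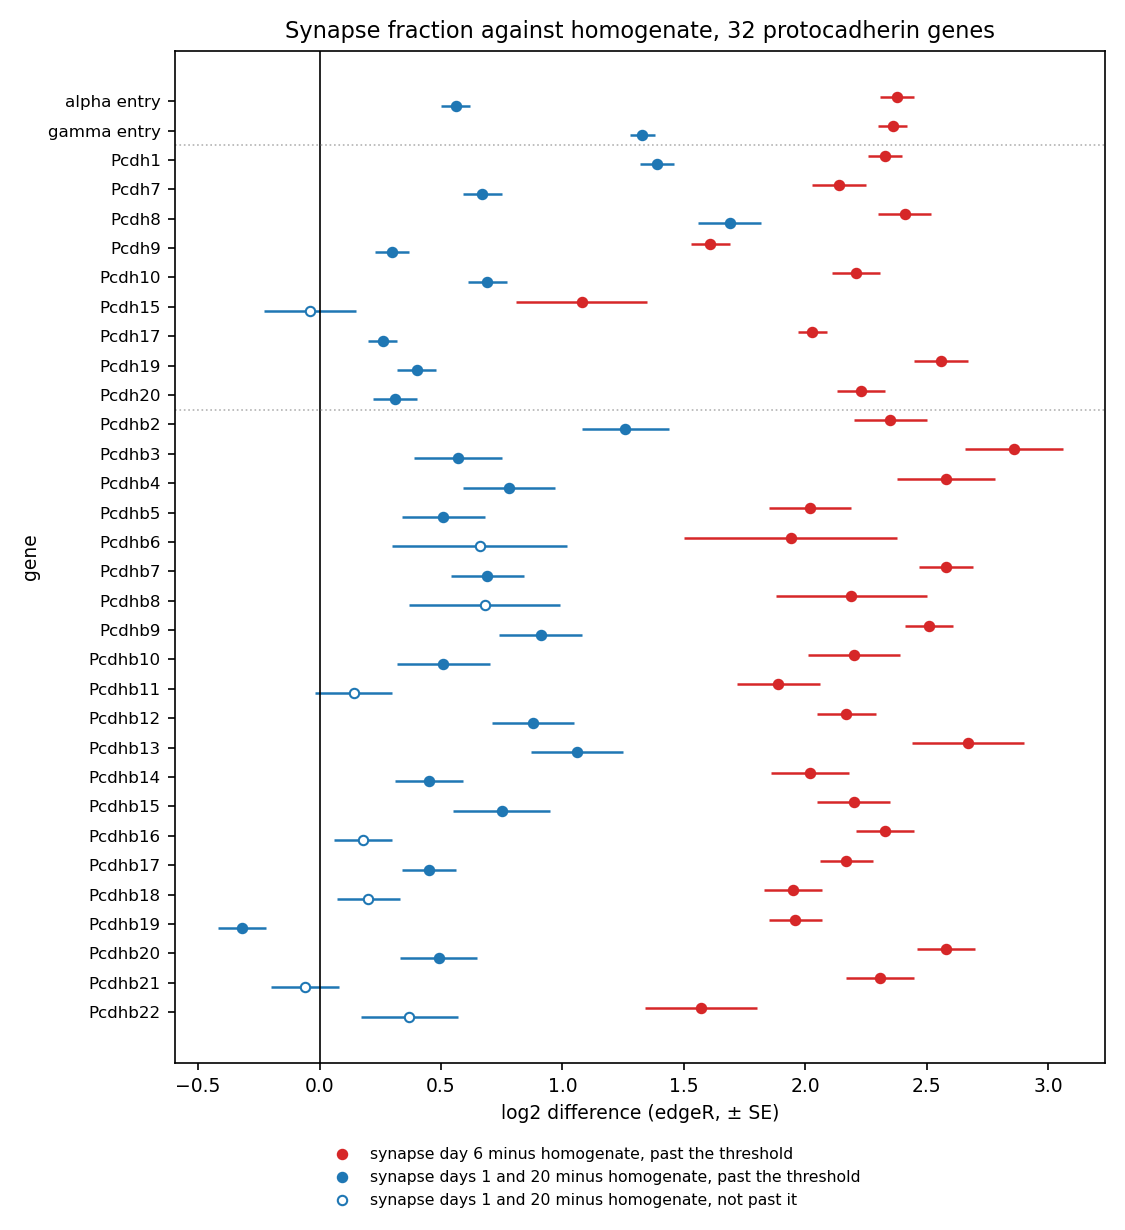
Difference of log2 level between the synapse fraction and the homogenate with its standard error (edgeR) for 32 genes, with day 6 in red and days 1 and 20 in blue, filled where the adjusted p was under 0.05. Differences of day 6 lie between 1.08 and 2.86, and those of days 1 and 20 between -0.32 and 1.69.

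Within the synapse fraction, all 32 genes were higher on day 6 than on days 1 and 20 in the same 12-library fit, where 45.1% of all genes tested were called, 22.6% higher and 22.5% lower. The median log2 difference of the 32 genes was 1.59, and that of all genes was -0.03. With library totals as the scale 27 of 32 passed, and the median of all genes was -0.56. That scale called 8228 of 13766 genes, 1694 higher and 6534 lower. Pcdhb21 had the largest value, 2.34 (SE 0.18), and Pcdhb3, Pcdhb19 and Pcdh19 followed with 2.26, 2.25 and 2.14. Smaller differences were those of Pcdh8 (0.72, SE 0.17), Pcdh1 (0.91, SE 0.10) and the gamma entry (1.01, SE 0.07). Pcdh8 was the 1 gene whose CPM overlapped between day 6 and the other days, and its call ended with library totals as the scale (0.18, edgeR adjusted p = 0.359) and without synapse library C of day 6 (0.34, edgeR adjusted p = 0.112). This comparison shares its libraries with those against the homogenates, and its 2 sides differ in column naming and gene list as well as in day. The summed CPM of markers given above also moved between these days, higher for neurons and lower for oligodendrocytes on day 6. Gene by gene, 2 of 6 neuron markers were higher and 2 lower (median log2 difference -0.19), as were 1 and 2 of 5 for oligodendrocytes (-0.21). Markers were higher on day 6 for astrocytes (3 of 5, median 0.66), oligodendrocyte precursors (2 of 2, 1.21) and microglia (3 of 3, 1.2). All 5 endothelial markers were lower (-1.84), at 35.5 and 59.2 CPM in L and C on day 6 against 173 to 266 CPM on days 1 and 20. Their part in the protocadherin differences was not tested.

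Between day 20 and day 1 no protocadherin gene was called, and neither was any of 13766 genes in edgeR (0%), DESeq2 or limma-voom. At an unadjusted p under 0.05 edgeR had 34 genes, none of them a protocadherin. That is fewer than such a threshold gives where nothing differs. The test was therefore conservative, and its lack of calls does not show that the days were alike. Log2 differences of day 20 minus day 1 ran from -0.25 (Pcdhb5, SE 0.27) to 0.19 (Pcdhb6 and Pcdhb7, SE 0.56 and 0.23).

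Promoters are shown for Pcdh8 and Pcdh19 because these numbered genes stood at opposite ends of the day 6 against days 1 and 20 comparison. The 250 bases before the RefSeq start are given on the gene's strand, 5′ to 3′ (GRCm38.p6, chr14:79771313-79771562 and chrX:133688994-133689243, both on the minus strand). Capitals mark TATAAA in Pcdh8 and a GC box (GGGCGG or its complement) in Pcdh19.
Pcdh8: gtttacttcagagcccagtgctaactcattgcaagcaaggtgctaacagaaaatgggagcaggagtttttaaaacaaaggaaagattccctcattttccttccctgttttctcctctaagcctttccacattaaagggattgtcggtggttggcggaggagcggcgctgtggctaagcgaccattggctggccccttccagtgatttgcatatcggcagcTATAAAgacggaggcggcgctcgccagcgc
Pcdh19: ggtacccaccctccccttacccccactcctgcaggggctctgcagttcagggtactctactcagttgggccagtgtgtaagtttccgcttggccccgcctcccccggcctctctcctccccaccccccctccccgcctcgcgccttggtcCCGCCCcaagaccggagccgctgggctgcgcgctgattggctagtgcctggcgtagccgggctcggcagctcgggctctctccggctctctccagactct

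Pcdh8 had 51.2% G and C and 11 CpG in this window and Pcdh19 had 69.2% and 16, against medians of 52% and 6 over 27025 promoters of that length. On either strand, TATAAA occurred in 13% of those promoters and GGGCGG in 32.9%. Of 9 numbered genes with a RefSeq promoter in the table, 2 held TATAAA (Pcdh8 and Pcdh15) and 4 held GGGCGG. TGACGTCA, the full cyclic AMP response element, occurred in 0 of 9 and in 1.62% of all, and its shorter form TGACG, which lies within it, in 2 of 9 (Pcdh9 and Pcdh10) and 17.9%. The E box CACGTG occurred in 0 of 9 and in 6.05% of all. These matches are descriptions of the letters in the window.

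Arm L was compared with arm C in the day 6 homogenates, the one place with replicates. No protocadherin gene passed the test. Of 13647 genes tested, edgeR called 0 (0%), with 1217 at an unadjusted p under 0.05, DESeq2 called 13 and limma-voom 0, none of them a protocadherin. The median log2 difference of the 32 genes was -0.09, with 9 above 0, and that of all genes was 0.00. The mean sum of each class was lower in L, and none passed its exact test. The beta genes summed to 277.5 ± 16.1 CPM in L and 300 ± 12.4 CPM in C (SD, n = 3 each, two-sided exact permutation p = 0.2). The gamma entry had 334 ± 13.3 CPM in L and 355.8 ± 14.3 CPM in C (exact p = 0.3), and the alpha entry 237.2 ± 17.7 and 255 ± 5.59 CPM (exact p = 0.3). The numbered genes summed to 1741 ± 64.7 and 1770 ± 89.1 CPM (exact p = 0.8). With 3 libraries against 3 the smallest possible exact p is 0.1.

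Pcdhb9 and Pcdhb18 were the 2 genes at an unadjusted p under 0.05. Pcdhb9 had 13.8, 11.9 and 12 CPM in L and 16, 16.4 and 17.2 CPM in C, without overlap (log2 difference -0.39, SE 0.14, edgeR adjusted p = 0.515). Pcdhb18 had 19.4, 16.4 and 23.1 CPM in L and 23.9, 25.4 and 24.5 CPM in C, also without overlap (log2 difference -0.32, SE 0.14, edgeR adjusted p = 0.555). Among the numbered genes the values ran from -0.29 (Pcdh15, SE 0.26) to 0.22 (Pcdh8, SE 0.13).

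In the synapse fraction, L and C have 1 library each on a day. Over the 3 days together, with day as a block, edgeR called 0 of 13363 genes (0%) and none of the 32 protocadherin genes. At an unadjusted p under 0.05 it had 227 genes, 2 of them protocadherin genes. The 227 are fewer than such a threshold gives where nothing differs, so the lack of calls does not show that the arms were alike. DESeq2 called 0 genes and limma-voom 1, not a protocadherin. The median log2 difference of the 32 was -0.10, with 9 above 0, and the 9 numbered genes ranged from -0.25 (Pcdh8, SE 0.15) to 0.01 (Pcdh15, SE 0.15). Over all genes the median was -0.01, with 47.4% above 0. The other cadherins listed below had -0.13 (6 of 30 above 0), and genes annotated as integral to a membrane had -0.08.

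For single days there is no test, and ratios of L over C are given with a 95% interval that covers counting error only, for genes with at least 10 CPM. On day 1, 0 of 29 protocadherin genes passed 2-fold (0.15% of 9316 genes did). All 9 numbered genes were below 0, from -0.28 for Pcdh8 to -0.02 for Pcdh19, whereas 46.5% of all genes were above 0. On day 20, 0 of 27 passed 2-fold (0.0537% of 9306 genes did), with 2 of 9 numbered genes above 0.

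On day 6 the pair of synapse libraries spread more. There 2 of 30 protocadherin genes passed 2-fold, beside 6.37% of 8079 genes. Pcdhb12 had 517 counts in L and 306 in C, 44.3 and 20.1 CPM, a log2 ratio of 1.05 (interval 0.85 to 1.27). Pcdhb15 had 190 and 597 counts in L and C, 16.3 and 39.1 CPM, a log2 ratio of -1.34 (interval -1.59 to -1.11). These 2 beta genes differed in opposite directions in this pair. Pcdhb20 (-0.98, interval -1.15 to -0.82) and Pcdhb9 (0.88, interval 0.72 to 1.04) came close to 2-fold. On day 1 Pcdhb12 had 17.2 and 17.7 CPM in L and C and Pcdhb15 had 12.9 and 13 CPM. On day 20 Pcdhb12 had 18.4 and 18.8 CPM in L and C, and Pcdhb15 had 13.1 and 15.4 CPM. For both genes the gap between the arms was smaller on those days.

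**Figure D4:**
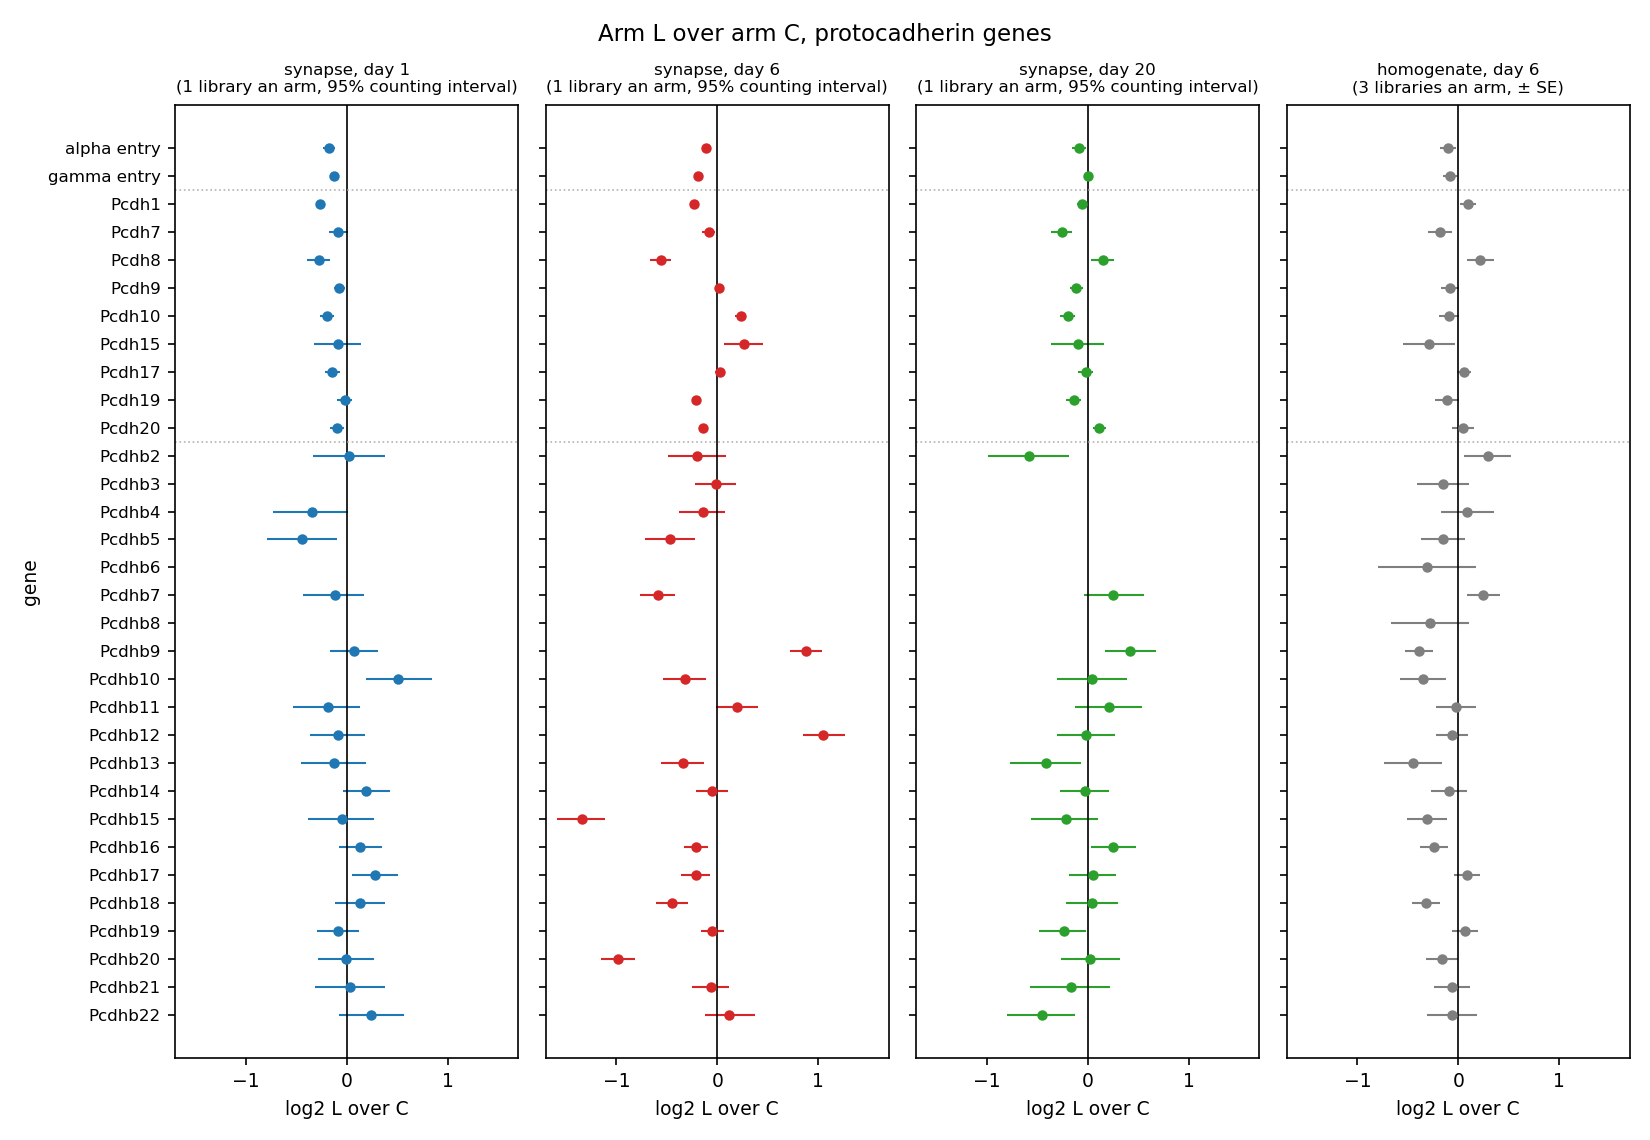
Log2 ratio of L over C for each gene, in the synapse pairs of days 1, 6 and 20 with 95% counting intervals (genes with at least 10 CPM) and in the homogenates with standard errors (edgeR). The beta genes of the day 6 synapse pair spread from -1.34 to 1.05, and the homogenate differences lie between -0.45 and 0.29.

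Genes related to the protocadherins were counted in 3 lists. Of 31 tested other cadherins (classical cadherins, Fat, Dachsous, Celsr and calsyntenins), 26 were higher and 1, Cdh26, was lower in the day 6 synapse fraction, with a median log2 difference of 1.95 and 2.38 (SE 0.07) for N-cadherin, Cdh2. On days 1 and 20, 22 were higher and 0 lower, with a median of 0.78. For synapse day 6 against days 1 and 20, 19 of the 31 were higher and 2 lower, with a median of 1.13. There 22.6% of all genes were called higher and 22.5% lower. Partners and processing enzymes of protocadherin proteins numbered 8 higher and 9 lower of 21 on day 6, where 28.7% of all genes were called higher and 38.5% lower. The higher ones included the sheddase Adam10 (2.13, SE 0.06), which cuts cadherins, and the lower ones the kinase Ptk2b (-1.08, SE 0.09), a partner of clustered protocadherins, and the adaptor Pdcd10 (-1.01, SE 0.10). Regulators of the cluster promoters numbered 4 higher and 6 lower of 14 on day 6, with Ctcf, which loops enhancers to the cluster promoters, at -0.40 (SE 0.12), and the silencing factor Smchd1 at -0.68 (SE 0.10). On days 1 and 20 the partners numbered 6 higher and 8 lower of 21 and the promoter regulators 2 higher and 8 lower of 14, where 24.2% of all genes were called higher and 21.4% lower. In L against C none of these genes passed in edgeR in the homogenates or over the synapse days.

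A higher level in the synapse fraction was common among genes of membrane proteins. Those annotated in the deposited tables as an integral component of a membrane or plasma membrane, a description added after the values were seen, had a median log2 difference of 1.30 on day 6 (3155 genes, 67.1% called higher), against -0.41 for the other 10950 (17.5%). Their upper quartile was 1.87, and 14 of the 36 protocadherin genes carry the term. On days 1 and 20 the medians were 0.45 and -0.15. For synapse day 6 against days 1 and 20 they were 0.77 and -0.17, with 53.1% and 13.6% called higher.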

How the data were processed

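Ribosomal RNA was removed from Trizol RNA before dUTP-marked, randomly primed libraries were made, per the labels' protocols. The submitters' processing notes list HISAT2 2.0.4 with mm10, HTSeq 0.9.1, cutadapt 1.9.3 and edgeR. Annotation release, strand setting and gene filters were not given in the sources used here. What the authors deposited are raw read counts per gene, in 4 tables.

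Groups came from the titles. Members and lists were chosen with earlier results of these data known. All symbols beginning with Pcdh were members, every numbered gene was named, and of the beta genes those highest or lowest in the homogenates and those past a threshold. Counts were scaled to CPM, and tests used edgeR 4.0.16 (filterByExpr, TMM, robust quasi-likelihood, R 4.3.3) with Benjamini-Hochberg adjustment over all genes, called at an adjusted p under 0.05. Ratios within synapse pairs used CPM after TMM scaling, a prior count of 2 and exact Clopper-Pearson intervals. Alternatives were DESeq2 1.42.0, limma-voom (limma 3.58.1), other scalings, no low-count filter, a replicate block and leaving out libraries. Intervals and the floor of 3 counts cover counting error only. On simulated counts with 2-fold changes, 69% of 200 changed genes were called in the homogenate comparison of L and C and 61.5% in the day 6 comparison of fractions, with 11% and 6.82% of calls false. No 2 homogenate libraries held identical counts. Some list genes are not reported here.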

Additional observations from a re-analysis of the deposited data

Results flagged for a closer look

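In the 8 libraries of day 6, edgeR tested whether L over C differed between the synapse fraction and the homogenate. It called 2569 of 14137 genes (18.2%) and 5 of 32 protocadherin genes (15.6% of them), so the share of protocadherin genes was not above the share of all genes. The contrast was added after the values were seen, and 1 library in each arm stands on the synapse side. The ratios of each fraction come from fits of their own, so their gap differs slightly from the tested difference. Pcdhb9 had a log2 ratio of L over C of 0.88 in the synapse pair and -0.39 in the homogenates, a difference of 1.23 (edgeR adjusted p = 0.00753). For Pcdhb12 the ratios were 1.05 and -0.06, a difference of 1.08 (edgeR adjusted p = 0.0197). Pcdhb7 had -0.59 and 0.25, a difference of -0.89 (edgeR adjusted p = 0.0308). Pcdh8 had -0.56 and 0.22, a difference of -0.82 (edgeR adjusted p = 0.0396), and Pcdhb20 had -0.98 and -0.16, a difference of -0.87 (edgeR adjusted p = 0.0442). Pcdhb15, which passed 2-fold in the synapse pair, had a difference of -1.08 that missed the threshold (edgeR adjusted p = 0.0513).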

How the results depend on the processing

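The count of protocadherin genes called between the fractions on day 6 stayed between 31 and 32 of 32 under every alternative run, and on day 6 against days 1 and 20 between 27 and 32. On days 1 and 20 against the homogenates 24 were called, 14 with scaling to the library total, and 19 to 24 with 1 library left out. Over all genes these counts were 6278, 7008 and 5041 to 6126. With library totals, 11151 of 14137 genes were called between the fractions on day 6. For day 6 against days 1 and 20 they gave 8228 of 13766. For L against C, 0 were called in the homogenates and over the synapse days under every alternative run. Over all genes, DESeq2 called 13 in the homogenates, the replicate block 2 and leaving out 1 library 0 to 3 (3 without C replicate 2). Over the synapse days, limma-voom called 1, and leaving out a day gave 0 to 7, with 7 without day 1 and 1 without day 6. Genes past 2-fold in the synapse pairs numbered 33 and 5 on day 1, 1143 and 171 on day 6 and 19 and 2 on day 20 with floors of 5 and 20 CPM. Class sums, L minus C, ranged with 1 homogenate left out from -26.4 to -8.66 CPM for alpha, -28.7 to -13.3 for beta, -30.1 to -14.1 for gamma and -76.7 to 11.2 for the numbered genes.

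Among the alpha entry, the gamma entry and the numbered genes, signs turned only for uncalled log2 differences near 0. Beta genes other than Pcdhb19 were followed as counts only. Of 21, 19 were above 0 on days 1 and 20 against the homogenates, and 16 with library totals as the scale. For L against C in the homogenates 5 were above 0, and 4 to 9 with 1 library left out. With 1 homogenate left out, L against C ranged from -0.16 to 0.00 for Pcdh9, -0.23 to 0.00 for Pcdh19 and -0.04 to 0.16 for Pcdh20 (-0.03 without L replicate 2, -0.04 without C replicate 3), and Pcdh15 on days 1 and 20 from -0.15 to 0.11 (0.01 without C replicate 1). Without a synapse day, L against C was -0.19 to 0.01 for Pcdh10, -0.09 to 0.07 for Pcdh15 and -0.13 to 0.01 for Pcdh20. Day 20 minus day 1 with 1 library left out was -0.15 to 0.10 for Pcdh1, -0.15 to 0.15 for Pcdh8, -0.12 to 0.03 for Pcdh10, -0.04 to 0.12 for Pcdh17, -0.06 to 0.00 for the alpha entry (Pcdha2) and -0.09 to 0.04 for the gamma entry (Pcdhga9), and 0.00 for Pcdh8 with library totals. The cause was not tested. Scaling to library totals, the fit without synapse day 6, left-out synapse libraries outside the days 1 and 20 comparison with the homogenates and the fit of synapse libraries only were chosen after seeing the data.

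Same-numbered homogenates deviated from their arm means with correlations of 0.01, 0.25 and 0.18, and differently numbered ones with -0.26 to 0.11. These values do not settle whether the numbers are pairs. The main fit did not take them as pairs. The count headers do give each homogenate L library a code that 1 C library shares, without saying what it stands for. With the replicate block 0 protocadherin genes were called. Between same-numbered homogenates, an alternative chosen after seeing the data, class sums were lower in L in 3 of 3 for beta (-41, -23 and -3.52 CPM) and gamma (-21.6, -20.6 and -23.2 CPM; exact sign-flip p = 0.25 for both, the smallest possible) and in 2 of 3 for alpha and the numbered genes (exact p = 0.5). Genes under about 3 counts (0.188 to 0.33 CPM) cannot be told from absent.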
